A study of Mus musculus with 12 samples.

Results

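The transcriptional response of STHdhQ111 striatal cells to an inflammatory challenge was described from 3 libraries of cells treated with IFNγ/LPS (Q111-T) and 3 libraries of nontreated cells (Q111-C). A gene was included when it had at least 0.5 TPM (a transcript abundance scaled for transcript length and library total) in at least 3 of these 6 libraries. This rule kept 15055 of the 29428 genes in the table. STHdhQ111/Q111 is an immortalized striatal line from knock-in mice whose huntingtin gene encodes 111 glutamines, and the labels give its genotype as HD. Q111-T cells received 100 ng/mL murine IFNγ together with 5 μg/mL LPS for 24 h, and Q111-C cells of the same line received neither. The series has 12 libraries in all, since nontreated and treated STHdhQ7/Q7 cells, which encode 7 glutamines, were sequenced in the same way (Q7-C and Q7-T, 3 libraries each). Every Q111 library comes from the same cell line and the same time point, and IFNγ and LPS were only given together, so that their separate parts and those of clone and genotype cannot be told apart here. The study calls the 3 libraries of a group biological replicates without saying how the cultures were kept apart, and p-values measure the spread between these libraries.

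IFNγ binds its receptor at the cell surface and activates the kinases JAK1 and JAK2, which phosphorylate transcription factors of the STAT family. These bind DNA elements called GAS and induce IRF1 and other factors that act through the interferon-stimulated response element (ISRE). LPS, the outer membrane glycolipid of Gram-negative bacteria, is delivered by LBP and CD14 to TLR4 and MD-2 and activates NF-kB, AP-1 and, through TRIF and IRF3, the transcription of interferon beta. Cells exposed to both typically make guanylate-binding proteins, antigen presentation genes, chemokines, cytokines and inducible nitric oxide synthase. Such a response in brain cells is commonly called neuroinflammation and has been linked to Huntington's disease.

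The libraries held between 63140505 and 79265140 estimated counts in Q111-C and between 59277158 and 76494963 in Q111-T. Over log2(TPM + 0.5) of the genes tested, distances ran from 37.1 to 45.5 within Q111-C, from 43.7 to 73.4 within Q111-T and from 109.7 to 120.8 between the groups. Replicate 2 of Q111-T stood apart from the other treated libraries and gave the distances of 68.9 and 73.4, and its mitochondrially encoded transcripts summed to 112437 TPM against 68998 and 78762 in the other treated libraries and 70675 to 76489 in the controls. A set of 16 skeletal muscle genes, chosen after the values were seen, summed to 570 TPM in Q111-C replicate 1 and 760 TPM in Q111-T replicate 3, against 2.83 to 22.05 TPM in the other Q111 libraries. In STHdhQ7 cells it summed to 948 and 3705 TPM in Q7-T replicates 1 and 2 and to 3.68 to 41.3 TPM in the other libraries. A set of 5 liver genes, chosen in the same way, summed to 62.4 TPM in Q111-T replicate 2, to 40.8 TPM in Q7-C replicate 3 and to at most 5.81 TPM elsewhere. The muscle set was thus high in 1 library of each Q111 group, and Acta1, skeletal muscle actin, differed by 0.44 on the log2 scale (edgeR adjusted p = 0.892). The part of these transcripts in the results was not tested, and the counts of DEGs are also given without the libraries concerned.

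IFNγ/LPS changed 2086 genes past both thresholds, a Benjamini-Hochberg adjusted p under 0.05 in edgeR's quasi-likelihood test and at least a 2-fold change. Of these differentially expressed genes (DEGs), 1513 were upregulated (10.0% of the genes tested) and 573 were downregulated (3.81%). Without Q111-T replicate 2 the counts were 1559 and 666, and without both libraries high in muscle transcripts they were 1359 and 488. Larger changes were mostly increases. With genes not detected in a group entered at their lower bound, 200 genes were upregulated and 8 downregulated at 16-fold or more, and 55 and 0 at 64-fold or more. By fitted folds, which depend for such genes on a small constant added in the fit, the counts were 269 and 17 at 16-fold and 119 and 6 at 64-fold. The upregulated DEGs made up 2.67% to 2.89% of the listed TPM in the Q111-C libraries and 14.2% to 15.0% in the Q111-T libraries. The downregulated DEGs made up 3.33% to 3.58% and 0.954% to 1.18%. The libraries of the groups did not overlap in TPM for 51.7% of all genes tested and for 99.3% of the DEGs. Such a gap therefore adds little to the call of a DEG. A further 3450 genes had an adjusted p under 0.05 with a change under 2-fold. The median log2 fold change over all genes tested was -0.0012 after TMM scaling and -0.11 with limma on log2(TPM + 0.5), and small changes of gene groups are read against this shift. Of the upregulated DEGs, 329 passed the filter through treated libraries alone, and 94 of the downregulated DEGs through control libraries alone, so that their presence among the DEGs was partly set by the filter.

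**Figure D1:**
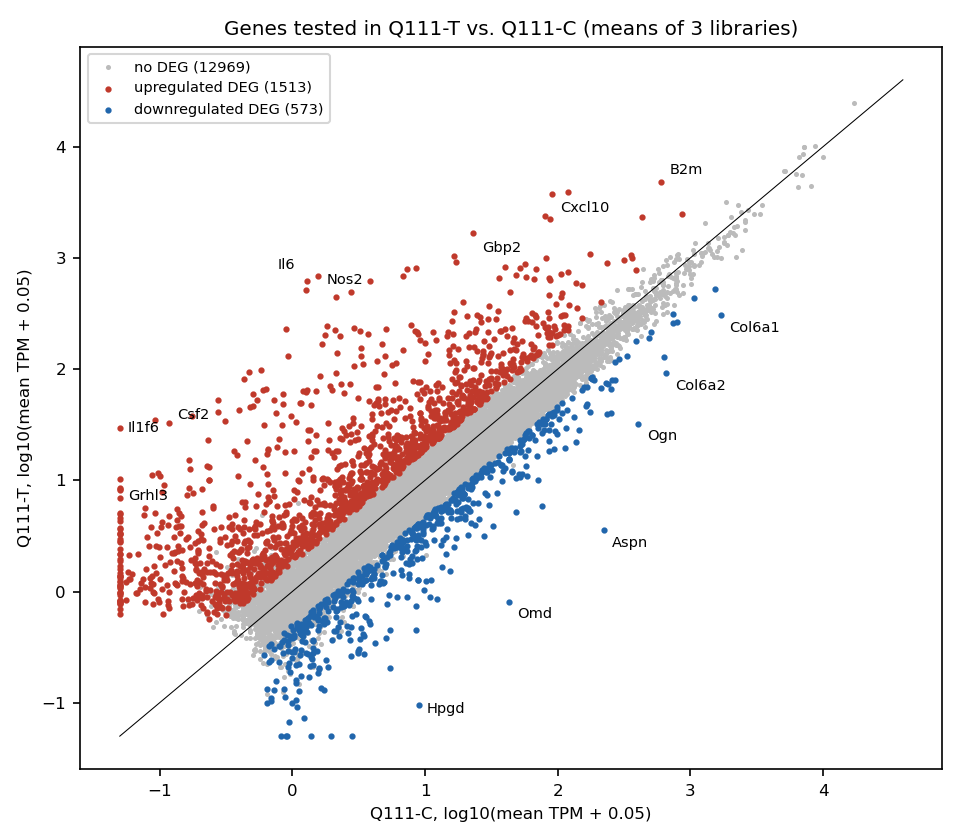
Mean TPM of the 15055 genes tested in nontreated (x axis) and IFNγ/LPS-treated (y axis) STHdhQ111 cells, each axis as log10(mean TPM + 0.05) of 3 libraries, with the 1513 upregulated DEGs in red, the 573 downregulated DEGs in blue, the other genes in grey and a line of equal levels. The column of points at the left edge holds genes listed at 0 TPM in all 3 Q111-C libraries, such as Il1f6 and Grhl3.

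The 10 DEGs with the largest fitted rise, among those reaching 5 TPM with groups that did not overlap in TPM, are given first. Of these, 8 were not detected in nontreated cells, so that their fitted rise depends on the constant added in the fit and their order against detected genes, such as Cxcl9 at 8.80 on the log2 scale, is not settled. Il1f6, which encodes the interleukin-1 family cytokine IL-36α (ENSMUSG00000026984, chromosome 2, 24215418 to 24225702, plus strand), was listed at 0 TPM in every Q111-C library and at 28.8, 32.2 and 27.7 TPM in the Q111-T libraries, at least 81.3-fold higher. Grhl3, a grainyhead-like transcription factor of epithelia (ENSMUSG00000037188, chromosome 4, 135541888 to 135573630, minus strand), was also at 0 in the controls and had 7.69, 9.18 and 8.82 TPM after treatment, at least 74.3-fold higher. Il1a, which encodes the alarmin cytokine interleukin-1α, reached 6.88, 7.17 and 6.405 TPM and was at least 41.9-fold higher. For all of these, the treated libraries lay close together and far above the controls. The chemokine gene Ccl3 reached 7.19, 12.003 and 5.64 TPM (at least 20.2-fold) and Ppp1r14d, a protein phosphatase inhibitor gene, 3.88, 6.13 and 5.07 TPM (at least 13.5-fold). The gene models Gm5970 and Gm8810 were at least 30.2-fold and at least 23.9-fold higher, but gene models of this kind can share reads with similar genes and are uncertain. Acod1, which makes the macrophage metabolite itaconate from an intermediate of the citric acid cycle, was at or under the detection limit in the controls and had 38.5, 26.4 and 39.3 TPM after treatment, at least 279-fold higher.

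Il6, the gene of the fever and acute-phase cytokine interleukin-6 (ENSMUSG00000025746, chromosome 5, 30013114 to 30019981, plus strand), had 0.282, 0.470 and 2.98 TPM in the Q111-C libraries and 574, 742 and 537 TPM in the Q111-T libraries. Q111-C replicate 3 was the highest control, and the lowest treated library still lay above it by more than 100-fold. The log2 fold change was 9.04 (standard error 0.831, edgeR adjusted p = 6.50e-05). Nos2, which encodes inducible nitric oxide synthase (ENSMUSG00000020826, chromosome 11, 78920787 to 78960254, plus strand), had 0.967, 1.26 and 2.35 TPM in the Q111-C libraries and 817, 498 and 759 TPM in the Q111-T libraries. Q111-T replicate 2 was the lowest of the treated libraries, and the log2 fold change was 8.91 (standard error 0.386, edgeR adjusted p = 8.92e-07).

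In absolute terms, B2m gained the most TPM of all DEGs. It encodes β2-microglobulin, the light chain of MHC class I, and had 555, 605 and 652 TPM in the Q111-C libraries and 4129, 6199 and 4002 TPM in the Q111-T libraries, and its log2 fold change was 3.12 (standard error 0.242, edgeR adjusted p = 2.39e-05). Q111-T replicate 2 was the highest library for B2m, and every treated library lay above every control. The next largest gains were those of 4 chemokine genes. Ccl2, an attractant of monocytes, had 106, 116 and 139 TPM in the Q111-C libraries and 3834, 4774 and 3047 TPM in the Q111-T libraries, a log2 fold change of 5.14 (standard error 0.257, edgeR adjusted p = 1.86e-06). Cxcl10, a ligand of CXCR3, a chemokine receptor of T cells, had 77.4, 94.0 and 97.8 TPM in the Q111-C libraries and 3726, 4080.0 and 3524 TPM in the Q111-T libraries, a log2 fold change of 5.51 (standard error 0.184, edgeR adjusted p = 2.25e-07). It overlaps Art3 on the opposite strand. Cxcl1, an attractant of neutrophils, had 65.0, 70.5 and 105 TPM in the Q111-C libraries and 2510.0, 2461 and 2178 TPM in the Q111-T libraries, a log2 fold change of 5.01 (standard error 0.228, edgeR adjusted p = 1.16e-06). Ccl7, a neighbour of Ccl2 on chromosome 11, had 81.4, 83.9 and 95.1 TPM in the Q111-C libraries and 2035, 2718 and 1962 TPM in the Q111-T libraries, a log2 fold change of 4.82 (standard error 0.219, edgeR adjusted p = 1.16e-06). In each of these 4 genes all treated libraries lay above all controls by at least 10-fold, while the spread within a group stayed under 2-fold.

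**Figure D2:**
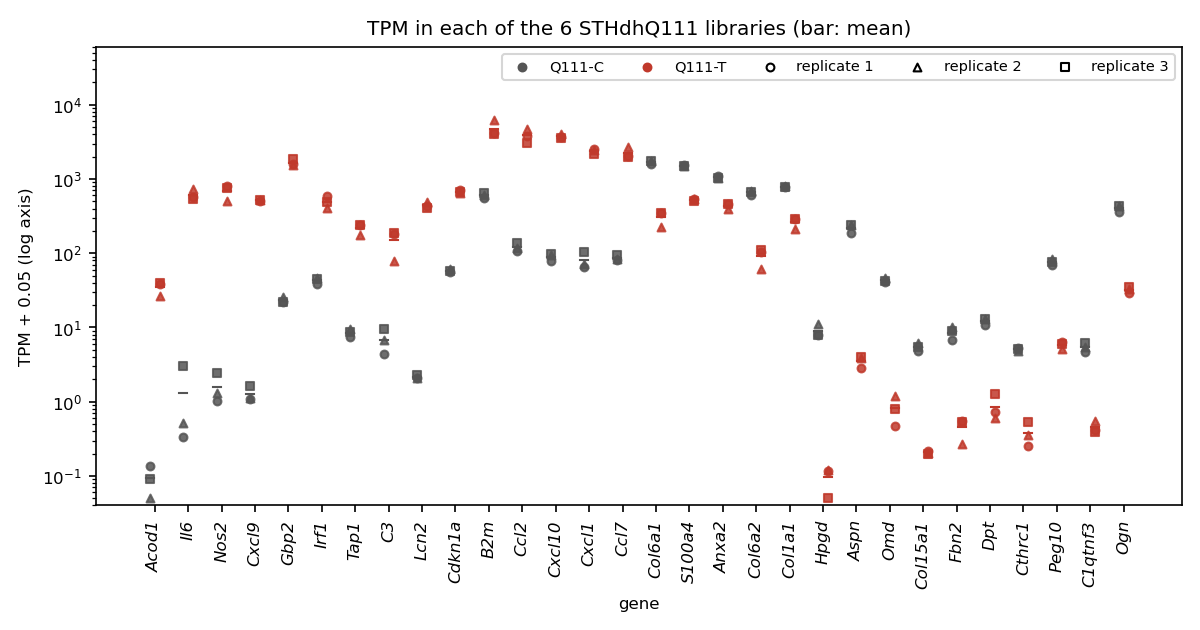
TPM + 0.05 on a log axis in each of the 3 Q111-C libraries (grey) and the 3 Q111-T libraries (red) for 30 genes, with the replicate number as the symbol and the group mean as a bar. Treated libraries lie above all controls for the genes on the left, from Acod1 to Ccl7, and below them from Col6a1 to Ogn.

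Guanylate-binding proteins (GBPs) and immunity-related GTPases (IRGs) coat the vacuoles of intracellular pathogens and help to break them open. All 19 genes of this list were tested and all 19 were upregulated, with a median log2 fold change of 6.28. They were upregulated as well without Q111-T replicate 2 and without the libraries high in muscle transcripts. The summed TPM of the list was 106 to 130.3 in Q111-C and 7051 to 8808 in Q111-T. Gbp2, the most abundant of them (ENSMUSG00000028270, chromosome 3, 142620602 to 142638008, plus strand), had 21.7, 25.8 and 21.8 TPM in the Q111-C libraries and 1612, 1533 and 1848 TPM in the Q111-T libraries, a log2 fold change of 6.28 (standard error 0.139, edgeR adjusted p = 1.05e-07). Gbp5, which promotes inflammasome assembly, had the largest change among the GBPs, with 0.295, 0.409 and 0.564 TPM in the Q111-C libraries and 100.97, 76.5 and 105 TPM in the Q111-T libraries and a log2 fold change of 7.87 (standard error 0.237, edgeR adjusted p = 1.70e-07). The treated libraries of both genes lay within 1.5-fold of each other and far above the controls. Among the IRGs, Iigp1, which is loaded onto parasite vacuoles, had 2.71, 3.08 and 2.42 TPM in the Q111-C libraries and 472, 452 and 557 TPM in the Q111-T libraries, a log2 fold change of 7.60 (standard error 0.159, edgeR adjusted p = 1.05e-07). Igtp, also called Irgm3, had 15.0, 20.8 and 13.6 TPM in the Q111-C libraries and 1052, 953 and 1121 TPM in the Q111-T libraries, a log2 fold change of 6.09 (standard error 0.185, edgeR adjusted p = 1.70e-07). The smallest change in the list was that of Irgm1, a regulator of the other IRGs, at 4.41 ± 0.138 (log2 fold change ± standard error, as for all such values). Several members share sequence or exons on the same strand (Gbp4, Gbp8 and Gbp9, Gbp6 and Gbp10, Igtp and Irgm2, Tgtp1 and Tgtp2), and how their reads were split is uncertain.

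Promoter windows from RefSeq (GRCm38.p6, 250 bases before to 50 bases after the annotated start) were found for 11 of these 19 genes. Of the 11, 10 held the ISRE core GAAANNGAA on either strand and 6 held the GAS core TTCNNNGAA, against 8.51% and 8.25% of the 10132 genes tested that had a window. The GAS core reads the same on both strands. In 4 IRG genes of chromosome 11, the GAS core was followed within a few bases by the ISRE core. These sequences are shown because they carry both elements in the same order, and that of Gbp7 because it holds a pair of GAS cores and an ISRE core on the other strand. They run 5′ to 3′ on the gene's strand, upstream of the annotated start, with the matches in capitals.
Igtp, chr11:58199491-58199550, plus strand: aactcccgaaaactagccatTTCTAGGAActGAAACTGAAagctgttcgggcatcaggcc
Irgm2, chr11:58214882-58214941, plus strand: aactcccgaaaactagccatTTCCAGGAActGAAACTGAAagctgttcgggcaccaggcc
Tgtp1, chr11:48992295-48992354, minus strand: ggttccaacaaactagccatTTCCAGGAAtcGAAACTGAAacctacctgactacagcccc
Tgtp2, chr11:49064254-49064313, minus strand: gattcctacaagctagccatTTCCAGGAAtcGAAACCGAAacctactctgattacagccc
Gbp7, chr3:142530210-142530312, plus strand: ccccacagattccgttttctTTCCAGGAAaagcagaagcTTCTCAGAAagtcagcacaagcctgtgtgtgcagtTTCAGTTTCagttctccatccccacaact
The log2 fold changes of these genes were 6.09 for Igtp, 5.61 for Irgm2, 6.79 for Tgtp1, 6.87 for Tgtp2 and 5.68 for Gbp7. A match is a description of the sequence, and binding was not measured.

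**Figure D3:**
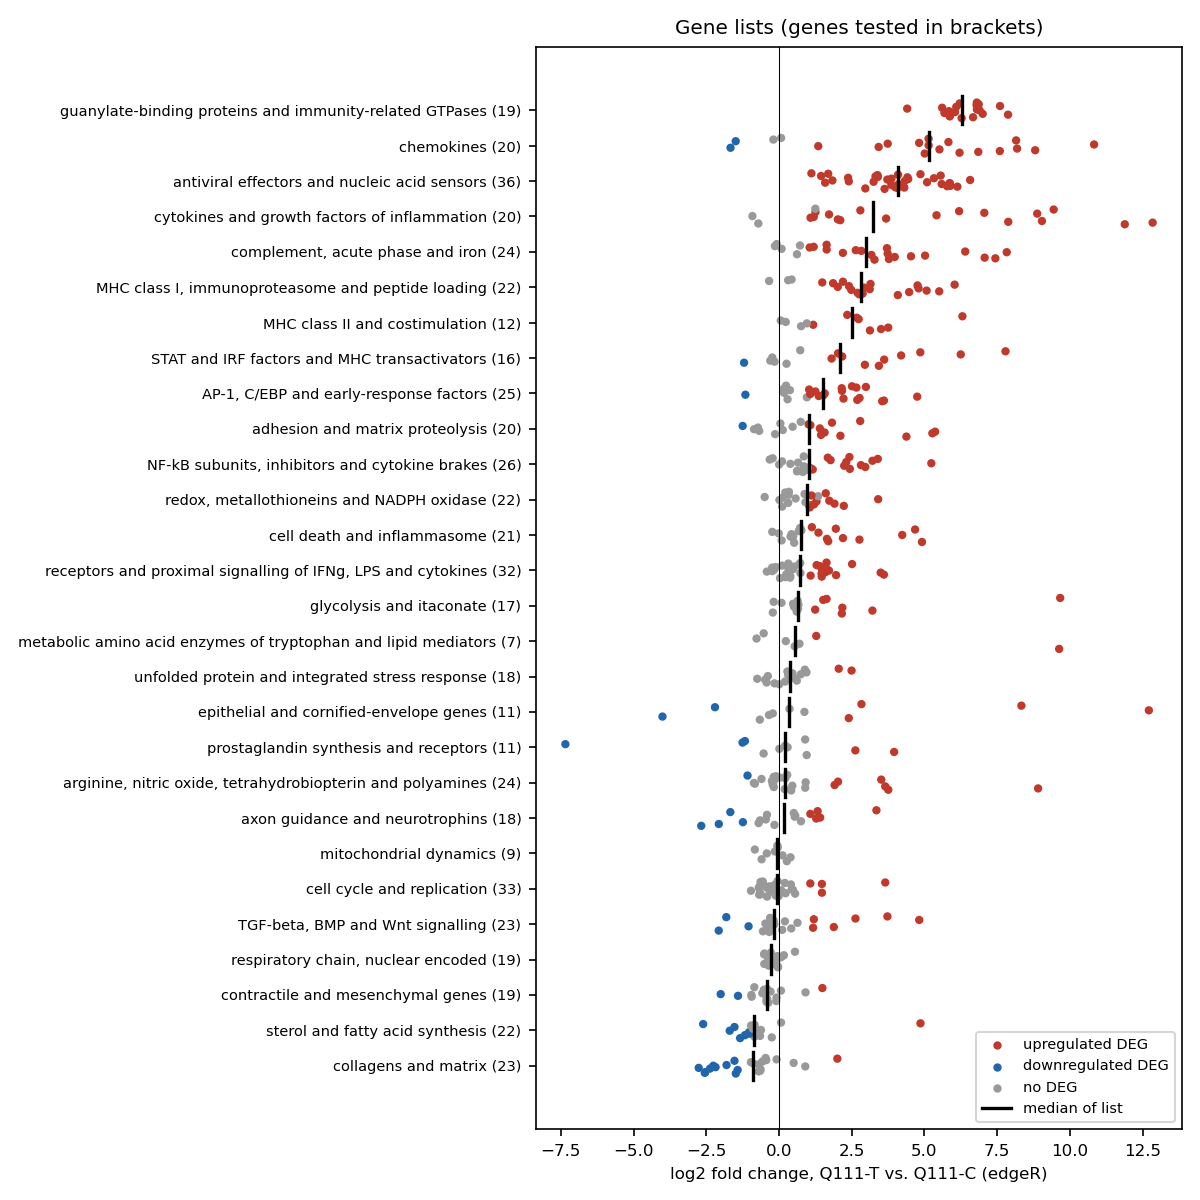
Log2 fold change in Q111-T vs. Q111-C (x axis, edgeR) of every gene tested in 28 gene lists (y axis, number tested in brackets), with upregulated DEGs in red, downregulated DEGs in blue, other genes in grey and the median of each list as a black bar. Medians run from -0.88 for collagens and matrix to 6.28 for the GTPases, and the fitted values of genes not detected in a group depend on the prior count, a small constant added in the fit.

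Genes of antiviral defence rose throughout the list. The 36 antiviral effectors and nucleic acid sensors tested were all upregulated, with a median log2 fold change of 4.08, and their summed TPM was 537.8 to 691.8 in Q111-C and 5993 to 7799 in Q111-T. Zbp1, a sensor of Z-form nucleic acid, had the largest change, with 1.87, 1.85 and 3.01 TPM in the Q111-C libraries and 211, 176 and 213 TPM in the Q111-T libraries and a log2 fold change of 6.57 (standard error 0.217, edgeR adjusted p = 2.23e-07). Rsad2, which encodes the antiviral enzyme viperin, changed by 6.13 ± 0.281, and Cmpk2, which lies beside it in the genome, by 5.78 ± 0.199. Ifit3, a member of the antiviral Ifit family, had 47.0, 58.6 and 64.0 TPM in the Q111-C libraries and 918, 757 and 978 TPM in the Q111-T libraries, a log2 fold change of 4.07 (standard error 0.135, edgeR adjusted p = 2.23e-07). The ubiquitin-like modifier gene Isg15 had 44.2, 44.9 and 55.0 TPM in the Q111-C libraries and 739.9, 664 and 719 TPM in the Q111-T libraries, a log2 fold change of 3.99 (standard error 0.121, edgeR adjusted p = 1.70e-07). For each of these, every treated library lay above every control. The cytosolic RNA sensors Ifih1 (MDA5) and Ddx58 (RIG-I) changed by 3.25 ± 0.170 and 2.40 ± 0.157. The smallest changes were those of Sting1, the adaptor of cytosolic DNA sensing, at 1.11 ± 0.111, and Trim25, a ubiquitin ligase that activates RIG-I, at 1.45 ± 0.178. The call of Sting1 was lost in 3 of 17 alternatives. The Ifit3 and Ifit3b genes and the Oas1 genes are near-identical families, and their single values are uncertain.

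Of 16 STAT, IRF and MHC transactivator genes tested, 10 were upregulated and 1 was downregulated (median log2 fold change 2.10). Irf1, a factor induced early by interferons, had 39.0, 46.4 and 44.5 TPM in the Q111-C libraries and 595, 403 and 489 TPM in the Q111-T libraries, a log2 fold change of 3.61 (standard error 0.133, edgeR adjusted p = 3.89e-07). Stat2 changed by 2.95 ± 0.200. The lymphoid and myeloid factor Irf8 rose from 0.116 to 8.48 TPM, a log2 fold change of 6.25 ± 0.380. Batf2, an AP-1-like factor of activated macrophages, rose from 0.385 to 81.4 TPM, a log2 fold change of 7.79 ± 0.240. Nlrc5, the transactivator of MHC class I, rose from 2.69 to 73.8 TPM, a log2 fold change of 4.86 ± 0.226. Stat5a was the member that fell, from 15.0 to 6.07 TPM, a log2 fold change of -1.20 ± 0.133. Stat3, Stat5b, Stat6, Irf3 and Batf3 had log2 values of 0.26, -0.15, -0.30, -0.23 and 0.73 that did not pass the test. Ciita, the transactivator of MHC class II, stayed below the filter, at 0.0301, 0.0120 and 0 TPM in Q111-C and 1.04, 0.317 and 0.945 TPM in Q111-T.

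Of the 22 genes of MHC class I, the immunoproteasome and peptide loading, 19 were upregulated (median log2 fold change 2.82). H2-K1, a class I heavy chain, had 44.9, 56.3 and 54.5 TPM in the Q111-C libraries and 881, 807 and 757 TPM in the Q111-T libraries, a log2 fold change of 4.08 (standard error 0.140, edgeR adjusted p = 2.70e-07), and the groups did not overlap. Tap1, a subunit of the peptide transporter, changed by 4.80 ± 0.132, and the immunoproteasome subunits Psmb9 and Psmb8 by 6.04 ± 0.271 and 4.76 ± 0.146. The heavy chain genes of the H2-Q and H2-T regions resemble each other, so their single values are uncertain. The members that were no DEGs were the general chaperones of the endoplasmic reticulum Calr, Canx and Pdia3, at -0.34, 0.31 and 0.43. The class II chains stayed at a low level. H2-Ab1 and H2-Eb1 rose to 0.813 ± 0.260 and 1.504 ± 0.108 TPM (SD, n = 3), and the call of H2-Ab1 was lost in 3 of the 16 alternatives that tested it. Cd74, the invariant chain, had 1.62, 1.77 and 0.977 TPM in the Q111-C libraries and 16.4, 19.3 and 19.4 TPM in the Q111-T libraries, a log2 fold change of 3.75 (standard error 0.256, edgeR adjusted p = 1.12e-05). The largest change of this list was that of Cd274, which encodes the T-cell checkpoint ligand PD-L1, with 1.07, 0.609 and 0.725 TPM in the Q111-C libraries and 68.9, 53.2 and 55.2 TPM in the Q111-T libraries and a log2 fold change of 6.30 (standard error 0.242, edgeR adjusted p = 4.84e-07). Cd80, a costimulatory ligand, rose from 12.6 to 74.3 TPM. In all, 8 of 12 genes of class II and costimulation were upregulated (median 2.51, and 1.10 with limma on log2(TPM + 0.5)).

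Chemokines direct leukocytes into inflamed tissue. Of 20 chemokine genes tested, 16 were upregulated and 2 downregulated. Their median log2 fold change was 5.14, 3.33 with limma on log2(TPM + 0.5), or 3.92 when the 5 genes without detection in nontreated cells entered at their lower bound, and their summed TPM was 481.1 to 603.3 in Q111-C and 12579 to 16292 in Q111-T. The CXCR3 ligands Cxcl9 and Cxcl11, which attract T cells, were nearly absent without treatment. Cxcl9 had 1.03, 1.08 and 1.58 TPM in the Q111-C libraries and 508, 515 and 524 TPM in the Q111-T libraries, a log2 fold change of 8.80 (standard error 0.215, edgeR adjusted p = 1.14e-07). Cxcl11 had 0.514, 0.730 and 1.29 TPM in the Q111-C libraries and 219, 248 and 223 TPM in the Q111-T libraries, a log2 fold change of 8.18 (standard error 0.341, edgeR adjusted p = 7.74e-07). The 3 treated libraries of Cxcl9 were nearly equal. Cxcl5, another attractant of neutrophils, rose from 0.527 to 97.6 TPM, a log2 fold change of 7.59 ± 0.230, and Ccl5, which attracts T cells and monocytes, rose from 80.9 to 986 TPM, a log2 fold change of 3.74 ± 0.219. Ccl12 and Cxcl3 were not detected in Q111-C and were at least 3.14-fold and at least 13.8-fold higher. Members at 0 in the controls, such as Ccl3, passed the filter through treated libraries alone, and 4 chemokine genes were below it. The count of upregulated chemokine genes is therefore partly set by the filter. The homeostatic chemokine Cxcl12 moved the other way, with 4.41, 5.00 and 4.54 TPM in the Q111-C libraries and 1.17, 1.26 and 1.64 TPM in the Q111-T libraries, a log2 fold change of -1.67 (standard error 0.157, edgeR adjusted p = 7.57e-05). Ccl9 also fell, from 8.89 to 2.91 TPM, a call lost in the fit of all 12 libraries (edgeR adjusted p = 0.0867). Ccl17 and Ccl25 did not pass the test, at -0.19 and 0.07.

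Of the 14 chemokine genes with a RefSeq window, 6 held the kB core GGGNNTTTC, 3 the ISRE core and 1 the GAS core. The kB core stood in Ccl20, Cxcl1, Cxcl2, Cxcl3 and Cxcl9 and also in Ccl9, which fell, and the GAS core stood in Ccl17, which did not pass the test. The kB core is part of the DNA element bound by NF-kB and was present in 5.22% of the genes tested with a window. The sequences shown belong to chemokine genes with large changes and to Il6, and the capitals mark the kB or ISRE core.
Cxcl1, chr5:90891137-90891202, plus strand: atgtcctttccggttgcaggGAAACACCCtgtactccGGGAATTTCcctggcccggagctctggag
Cxcl2, chr5:90903782-90903849, plus strand: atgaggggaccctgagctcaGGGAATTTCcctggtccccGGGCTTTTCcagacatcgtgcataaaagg
Cxcl9, chr5:92328205-92328274, minus strand: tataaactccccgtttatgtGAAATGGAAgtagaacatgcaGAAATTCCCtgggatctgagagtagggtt
Cxcl10, chr5:92349074-92349122, minus strand: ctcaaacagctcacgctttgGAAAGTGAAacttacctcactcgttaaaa
Il6, chr5:30013050-30013098, plus strand: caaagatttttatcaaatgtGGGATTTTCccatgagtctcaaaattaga
Cxcl1 and Cxcl2 held a pair of kB cores each, Cxcl9 an ISRE core and a kB core, Cxcl10 an ISRE core and Il6 a single kB core. Over all upregulated DEGs, 12.3% of 1412 windows held the ISRE core, 9.35% the GAS core and 5.95% the kB core, against 7.07%, 6.82% and 4.34% of the 12896 windows of genes tested and 8.56%, 8.30% and 4.36% of all 32851 windows. In the 491 windows of downregulated DEGs the shares were 6.52%, 8.35% and 5.91%, so that the kB share was nearly the same in both directions and the GAS share was close. In the windows of DEGs upregulated at least 16-fold, a limit set after the values were seen, the shares were 25.1%, 12.1% and 12.1% of 215 windows by fitted folds, and 26.8%, 12.7% and 11.5% of 157 windows with undetected genes at their bound. These shares are descriptions, with no test.

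Of 20 cytokine and growth factor genes tested, 17 were upregulated, and 6 more in the table were below the filter. Members near 0 in the controls, such as Csf2 and Ifnb1, passed it through treated libraries alone. The count is therefore partly set by the filter. The median log2 fold change was 3.24, or 2.87 when the 5 genes without detection in nontreated cells entered at their bounds. Csf2, the gene of GM-CSF, which drives myeloid cells, had 0, 0.201 and 0 TPM in the Q111-C libraries and 33.5, 40.3 and 24.8 TPM in the Q111-T libraries, at least 82.6-fold higher. Csf3, the gene of G-CSF, had 0.333, 0.210 and 0.243 TPM in the Q111-C libraries and 37.0, 32.6 and 32.4 TPM in the Q111-T libraries, a log2 fold change of 7.06 (standard error 0.213, edgeR adjusted p = 1.70e-07). Lif, a cytokine of the interleukin-6 family, had 3.10, 3.11 and 3.57 TPM in the Q111-C libraries and 153, 112 and 125 TPM in the Q111-T libraries, a log2 fold change of 5.41 (standard error 0.136, edgeR adjusted p = 1.14e-07). No control library of these 3 genes came near a treated library. Ifnb1, the gene of interferon beta, was listed at 0 in the controls and had 3.80, 3.39 and 2.65 TPM in Q111-T, at least 7.67-fold higher. Il1f9, another member of the interleukin-1 family, was at least 55.5-fold higher. Il15 rose from 2.61 to 30.9 TPM and Csf1, which sustains macrophages, from 122 to 378 TPM. Il1rn and Il34, which encode the interleukin-1 receptor antagonist and a ligand of the CSF1 receptor, changed by -0.71 ± 0.113 and -0.92 ± 0.175, under the 2-fold limit. Tnf was below the filter, at 0, 0 and 0.0631 TPM in Q111-C and 0.617, 0.440 and 0.740 TPM in Q111-T. Il1b, Il12a and Ifng were not analysed here.

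The genes of the main receptors of both stimuli, Ifngr1 and Tlr4, did not pass the test. Ifngr1, the ligand-binding chain of the IFNγ receptor, had 29.4, 30.5 and 32.5 TPM in the Q111-C libraries and 30.6, 29.0 and 28.0 TPM in the Q111-T libraries, and Tlr4 had 4.48, 6.64 and 6.32 TPM in the Q111-C libraries and 6.92, 5.15 and 7.34 TPM in the Q111-T libraries. The groups overlapped for both genes, and the differences were 0.03 ± 0.109 and 0.25 ± 0.162 on the log2 scale. Their partners were higher. Cd14, the LPS co-receptor, had 16.2, 15.5 and 15.0 TPM in the Q111-C libraries and 39.6, 40.1 and 39.5 TPM in the Q111-T libraries, a log2 fold change of 1.46 (standard error 0.123, edgeR adjusted p = 4.01e-05), and was upregulated in all 17 alternatives. Ifngr2, the second chain of the IFNγ receptor, and Ly96, which encodes MD-2, changed by 0.38 ± 0.0899 and 0.73 ± 0.228, under the 2-fold limit with an adjusted p under 0.05. Of 32 receptor and proximal signalling genes, 14 were upregulated (median 0.71). The largest changes belonged to Tlr3, a sensor of double-stranded RNA (3.60 ± 0.174), Lbp, the LPS-binding protein (3.49 ± 0.228), Il15ra (2.51 ± 0.163) and Tlr2, a sensor of bacterial lipoproteins (1.96 ± 0.111). Jak2 passed the limit narrowly at 1.09 ± 0.125, a call lost in 5 of 17 alternatives. Of 26 NF-kB and feedback genes, 13 were upregulated (median 1.04). The subunits Nfkb1, Nfkb2, Rela and Relb had log2 values of 0.82, 0.62, 0.63 and 0.92, all under 2-fold, while Rel, the gene of the subunit c-Rel, was upregulated at 1.16 ± 0.121, a call lost in 3 of 17 alternatives. Several inhibitors passed this limit. Tnip3, which restrains NF-kB activation, rose from 0.0645 to 2.45 TPM, the largest change of the list at 5.24 ± 0.361. Nfkbia, which encodes IκBα, had 53.0, 62.8 and 55.7 TPM in the Q111-C libraries and 301, 300.3 and 254 TPM in the Q111-T libraries, a log2 fold change of 2.43 (standard error 0.137, edgeR adjusted p = 3.63e-06). Socs1, which blocks JAK kinases, changed by 3.40 ± 0.322, the RNase gene Zc3h12a by 3.21 ± 0.115, Tnfaip3, which encodes the ubiquitin-editing enzyme A20, by 2.82 ± 0.182, and Nfkbiz by 2.96 ± 0.146.

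Among 24 genes of arginine, nitric oxide, tetrahydrobiopterin and polyamines, 6 were upregulated and 1 was downregulated (median 0.20, and 0.073 with limma on log2(TPM + 0.5)). Beside Nos2, the upregulated members included Slc7a2, a transporter of cationic amino acids (3.76 ± 0.170), and Gch1, which starts the synthesis of the NOS2 cofactor tetrahydrobiopterin. Gch1 had 0.637, 1.04 and 0.360 TPM in the Q111-C libraries and 7.83, 7.24 and 6.54 TPM in the Q111-T libraries, a log2 fold change of 3.51 (standard error 0.342, edgeR adjusted p = 8.94e-05). Smox, which oxidizes spermine, rose from 5.46 to 20.8 TPM. Srm and Sms, which build spermidine and spermine, changed by -0.83 ± 0.134 and -0.86 ± 0.101, under the 2-fold limit. Ddah2, an enzyme that degrades methylated arginines, was the member that fell, with a log2 value of -1.08 ± 0.148. In prostaglandin metabolism 2 of 11 genes were upregulated and 3 downregulated (median 0.21). Without Q111-T replicate 2 the median was 0.057 with 3 upregulated, and without Q111-C replicate 2 it was 0.13. Ptgs2, which encodes cyclooxygenase-2, had 18.1, 19.3 and 24.8 TPM in the Q111-C libraries and 302, 255 and 345 TPM in the Q111-T libraries, a log2 fold change of 3.96 (standard error 0.149, edgeR adjusted p = 4.45e-07). Ptges, the synthase of prostaglandin E2, had 19.4, 19.5 and 22.3 TPM in the Q111-C libraries and 140.0, 90.05 and 123 TPM in the Q111-T libraries, a log2 fold change of 2.62 (standard error 0.130, edgeR adjusted p = 1.79e-06). Hpgd, which inactivates prostaglandins, had 7.94, 11.0 and 7.80 TPM in the Q111-C libraries and 0.0654, 0.0715 and 0 TPM in the Q111-T libraries, at least 37.0-fold lower. The other downregulated members were the receptors Ptger1 (-1.26 ± 0.176) and Ptgfr (-1.17 ± 0.153). The call of Ptger1 was lost with limma on log2(TPM + 1) and that of Ptgfr in the fit of all 12 libraries (edgeR adjusted p = 0.0585). Of 7 genes of tryptophan and lipid mediator metabolism, 2 were upregulated (median 0.54, and 0.011 with a minimum of 1 TPM). They were Ido2, an enzyme of tryptophan breakdown that was at least 8.76-fold higher but lost its call with limma on log2(TPM + 1), and Enpp2, which makes lysophosphatidic acid (1.28 ± 0.150).

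Complement, acute-phase and iron genes numbered 24, of which 19 were upregulated (median 3.00, and 1.83 with limma on log2(TPM + 0.5)). Lcn2, a protein that binds bacterial siderophores, had 2.02, 2.03 and 2.22 TPM in the Q111-C libraries and 437, 484 and 411 TPM in the Q111-T libraries, a log2 fold change of 7.83 (standard error 0.182, edgeR adjusted p = 1.08e-07). C1s1, a protease of the classical complement pathway, had 3.64, 3.17 and 4.57 TPM in the Q111-C libraries and 649.8, 515 and 689 TPM in the Q111-T libraries, a log2 fold change of 7.44 (standard error 0.185, edgeR adjusted p = 1.14e-07). C3, the central complement component, had 4.30, 6.64 and 9.35 TPM in the Q111-C libraries and 181, 79.6 and 186 TPM in the Q111-T libraries, a log2 fold change of 4.54 (standard error 0.359, edgeR adjusted p = 2.64e-05). In C3, Q111-T replicate 2 was the lowest treated library and the groups did not overlap. Saa3, an acute-phase protein, rose from 0.672 to 52.4 TPM. The ferritin heavy chain gene Fth1 rose from 858 to 2455 TPM, a log2 fold change of 1.64 ± 0.168, while the light chain gene Ftl1 stood at -0.08 and did not pass the test. The C1r and C1s genes are pairs of similar copies and their split is uncertain.

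Of 20 genes of adhesion and matrix proteolysis, 11 were upregulated and 1 was downregulated (median 1.05). Mmp3, the matrix protease stromelysin-1, had 3.94, 4.13 and 5.91 TPM in the Q111-C libraries and 193, 130.0 and 185 TPM in the Q111-T libraries, a log2 fold change of 5.27 (standard error 0.194, edgeR adjusted p = 3.89e-07). Mmp13, a collagenase, rose from 0.0944 to 3.86 TPM. Vcam1 and Icam1, adhesion ligands of leukocyte integrins, rose from 3.57 to 14.3 TPM and from 0.134 to 2.66 TPM. Timp2, an inhibitor of matrix proteases, fell from 488 to 191 TPM, a log2 fold change of -1.25 ± 0.0922. The calls of Mmp9 and Plau, at 1.57 ± 0.429 and 1.02 ± 0.132, were lost in 10 of 16 and 8 of 17 alternatives.

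Genes of cell death rose in part, with 10 of 21 upregulated (median 0.77). Fas, a death receptor, had 8.87, 9.46 and 11.3 TPM in the Q111-C libraries and 174, 172 and 173 TPM in the Q111-T libraries, a log2 fold change of 4.23 (standard error 0.133, edgeR adjusted p = 1.85e-07). Pmaip1, which encodes the BH3-only protein NOXA, had 7.08, 9.53 and 9.58 TPM in the Q111-C libraries and 211, 196 and 214 TPM in the Q111-T libraries, a log2 fold change of 4.68 (standard error 0.137, edgeR adjusted p = 1.63e-07). Casp4, the sensor of intracellular LPS, rose from 0.595 to 17.0 TPM, and Mlkl, the executioner of necroptosis, from 69.1 to 296 TPM. Casp1 and Nlrp3 were below the filter, and Bcl2l1 changed under 2-fold, at 0.68 ± 0.0997.

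Among 25 AP-1, C/EBP and early-response genes, 17 were upregulated 24 h after the start of treatment and 1 was downregulated (median 1.52). Without Q111-T replicate 2 the count upregulated was 15. Atf3, a stress-induced repressor, had 8.12, 7.94 and 9.90 TPM in the Q111-C libraries and 217, 215 and 216 TPM in the Q111-T libraries, a log2 fold change of 4.75 (standard error 0.137, edgeR adjusted p = 1.61e-07). Junb had 114, 124 and 118 TPM in the Q111-C libraries and 849, 759.6 and 637 TPM in the Q111-T libraries, a log2 fold change of 2.77 (standard error 0.144, edgeR adjusted p = 2.32e-06). The treated libraries of both genes were above all controls. Fos and Fosl1 changed by 3.55 ± 0.254 and 2.69 ± 0.144, Cebpd, a factor of acute-phase genes, by 2.51 ± 0.241, and Egr3 fell from 3.62 to 1.52 TPM, a call lost with limma on log2(TPM + 1). Redox genes were upregulated in 10 of 22 cases (median 0.97), or in 7 without Q111-T replicate 2. Sod2, the mitochondrial superoxide dismutase, had 8.36, 7.97 and 7.74 TPM in the Q111-C libraries and 78.6, 86.5 and 70.5 TPM in the Q111-T libraries, a log2 fold change of 3.41 (standard error 0.154, edgeR adjusted p = 1.16e-06). Hmox1, which degrades heme, had 132, 144 and 134 TPM in the Q111-C libraries and 638, 598 and 538 TPM in the Q111-T libraries, a log2 fold change of 2.23 (standard error 0.120, edgeR adjusted p = 2.82e-06). Slc7a11, a cystine transporter, changed by 1.73 ± 0.126. Nfe2l2, Nqo1 and Prdx1 passed 2-fold narrowly, at 1.06, 1.03 and 1.12, and their calls were lost in 4, 5 and 4 of 17 alternatives, each time including the fit without Q111-T replicate 2. Of 18 genes of the unfolded protein and integrated stress responses, 2 were upregulated (11.1%, near the 10.0% of all genes tested), Sesn2 (2.49 ± 0.101) and Ppp1r15a (2.05 ± 0.111). The chaperone Hspa5 was at 0.01.

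The cell cycle list had a median log2 fold change of -0.08, and 4 of its 33 genes were upregulated (12.1%, near the 10.0% of all genes tested). Without Q111-T replicate 2 the median was -0.15, with 3 upregulated and 1 downregulated, and without Q111-T replicate 1 it was -0.048. Cdkn1a, which encodes the cyclin-dependent kinase inhibitor p21, had 55.1, 60.6 and 57.2 TPM in the Q111-C libraries and 700.2, 642 and 673 TPM in the Q111-T libraries, a log2 fold change of 3.65 (standard error 0.106, edgeR adjusted p = 1.61e-07). The others were Ccne2 (1.47 ± 0.135), Rrm2 (1.47 ± 0.116) and Tyms (1.07 ± 0.130), genes of the G1/S transition and of nucleotide synthesis, of which Tyms lost its call in 4 of 17 alternatives. Mki67, a marker of proliferating cells, had 120.1, 114 and 134 TPM in the Q111-C libraries and 99.2, 43.5 and 121 TPM in the Q111-T libraries, and the difference of -0.41 ± 0.268 did not pass the test. With an adjusted p under 0.05 and a change under 2-fold, a further 4 genes were higher and 11 were lower, among the latter Plk1 at -0.96 ± 0.109 and Mcm2 at -0.69 ± 0.110.

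Of 17 genes of glycolysis and itaconate, Acod1 included, 7 were upregulated and a further 7 were higher with an adjusted p under 0.05 and a change under 2-fold (median 0.65). Hk2, the inducible hexokinase, had 5.73, 6.53 and 6.76 TPM in the Q111-C libraries and 61.3, 45.5 and 57.7 TPM in the Q111-T libraries, a log2 fold change of 3.21 (standard error 0.106, edgeR adjusted p = 2.23e-07). Slc2a1, the glucose transporter GLUT1, rose from 46.4 to 192 TPM and Pdk1, which restrains entry of pyruvate into mitochondria, from 14.1 to 41.0 TPM. Nuclear genes of the respiratory chain gave 0 DEGs among 19 in edgeR, DESeq2 and limma. Of these, 9 had an unadjusted p under 0.05 in edgeR, and with an adjusted p under 0.05 and a change under 2-fold 7 were lower and 1 was higher. The median was -0.28, and the summed TPM was 3509 to 3649 in Q111-C and 2667 to 2772 in Q111-T, without overlap. Sums in TPM carry the shift of -0.11 that limma on log2(TPM + 0.5) gave over all genes. The median was -0.18 without Q111-T replicate 1, -0.18 without Q111-T replicate 3 and -0.13 without the libraries high in muscle transcripts. Of 9 genes of mitochondrial dynamics, 0 were DEGs in edgeR, DESeq2 and limma, and 3 had an unadjusted p under 0.05 in edgeR. With an adjusted p under 0.05 and a change under 2-fold, 2 were lower and 1 was higher. The summed TPM was 335 to 342 in Q111-C and 239 to 290 in Q111-T. The median of -0.06 turned to 0.0095 without Q111-T replicate 2.

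Genes of sterol and fatty acid synthesis were lower as a group. Of 22, 7 were downregulated and a further 12 were lower with an adjusted p under 0.05 and a change under 2-fold (median -0.85, and -0.96 with limma on log2(TPM + 0.5)). The count of downregulated members was 5 without Q111-T replicate 2 and 9 without the libraries high in muscle transcripts. Elovl6, which elongates fatty acids, had 20.0, 21.1 and 21.5 TPM in the Q111-C libraries and 3.54, 3.02 and 2.95 TPM in the Q111-T libraries, a log2 fold change of -2.61 (standard error 0.117, edgeR adjusted p = 1.14e-06). Fasn, the fatty acid synthase, changed by -1.53 ± 0.223 and Hmgcs1, an early enzyme of the mevalonate pathway, by -1.34 ± 0.0929. All treated libraries of these 3 genes lay below all controls. Ch25h was the member that rose, with 4.38, 6.79 and 3.73 TPM in the Q111-C libraries and 133, 159 and 105 TPM in the Q111-T libraries and a log2 fold change of 4.86 (standard error 0.295, edgeR adjusted p = 5.81e-06). It makes 25-hydroxycholesterol, an interferon-induced antiviral sterol.

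Matrix genes made up 3 of the 5 largest losses in TPM. Of 23 collagen and matrix genes, 10 were downregulated and 1 upregulated (median -0.88, and -0.99 with limma on log2(TPM + 0.5)). A further 8 were lower and 2 higher with changes under 2-fold. Col6a1, a chain of collagen VI (ENSMUSG00000001119, chromosome 10, 76708792 to 76726168, minus strand), lost the most TPM of all DEGs, with 1571, 1771 and 1721 TPM in the Q111-C libraries and 346, 223 and 350.0 TPM in the Q111-T libraries and a log2 fold change of -2.37 (standard error 0.146, edgeR adjusted p = 6.16e-06). Its neighbour Col6a2 had 611, 691 and 677 TPM in the Q111-C libraries and 103, 62.2 and 109.5 TPM in the Q111-T libraries, a log2 fold change of -2.76 (standard error 0.169, edgeR adjusted p = 5.91e-06). In both, Q111-T replicate 2 was the lowest library. Col1a1, of collagen I, had 779, 806 and 787 TPM in the Q111-C libraries and 290.1, 213 and 289.7 TPM in the Q111-T libraries, a log2 fold change of -1.49 (standard error 0.112, edgeR adjusted p = 2.04e-05). S100a4, a calcium-binding protein of motile mesenchymal cells, and Anxa2, a membrane-binding annexin, also ranked among the 5 largest losses, at -1.41 ± 0.109 and -1.17 ± 0.101. S100a4 shares its strand with an overlapping gene model and Anxa2 overlaps one on the other strand. The exceptions to the downward shift were the proteoglycan gene Dcn, which rose from 14.9 to 55.1 TPM, and Lox and Col8a1, at 0.50 ± 0.132 and 0.90 ± 0.125.

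Matrix genes also stood among the 10 DEGs with the largest fall of those reaching 5 TPM, a grouping made after the values were seen. Aspn, Omd and Ogn encode small leucine-rich proteoglycans and lie close together on chromosome 13 between 49544443 and 49624501. Aspn had 186, 241 and 237 TPM in the Q111-C libraries and 2.77, 3.80 and 3.93 TPM in the Q111-T libraries, a log2 fold change of -5.86 (standard error 0.206, edgeR adjusted p = 3.07e-07), and overlaps Cenpp on the opposite strand. Omd had 40.6, 45.9 and 42.6 TPM in the Q111-C libraries and 0.416, 1.13 and 0.735 TPM in the Q111-T libraries, a log2 fold change of -5.66 (standard error 0.354, edgeR adjusted p = 6.79e-06). Ogn had 354, 434 and 427 TPM in the Q111-C libraries and 29.2, 32.6 and 35.0 TPM in the Q111-T libraries, a log2 fold change of -3.53 (standard error 0.136, edgeR adjusted p = 4.84e-07). In each of them, the treated libraries were more than 10-fold below the controls. Others in this group were Col15a1, of a basement membrane collagen (-4.96 ± 0.182), Fbn2, of a microfibril protein (-4.30 ± 0.271), Dpt, which encodes dermatopontin (-3.83 ± 0.271), Cthrc1, of a secreted collagen repeat protein (-3.78 ± 0.341), and C1qtnf3, of a secreted C1q-related protein (-3.59 ± 0.278). Peg10, an imprinted gene derived from a retrotransposon, had 69.9, 83.6 and 75.1 TPM in the Q111-C libraries and 6.38, 5.11 and 5.91 TPM in the Q111-T libraries, a log2 fold change of -3.61 (standard error 0.102, edgeR adjusted p = 1.61e-07), and with Hpgd it was a member without a matrix role. Among 19 contractile and mesenchymal genes, 2 were downregulated and 1 was upregulated (median -0.42). Pdgfrb, a receptor of platelet-derived growth factor, fell from 70.0 to 16.5 TPM, a log2 fold change of -2.01 ± 0.180. Vim, which encodes vimentin, fell short of the 2-fold limit at -0.94 ± 0.129.

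Of 23 TGF-beta, BMP and Wnt genes, 6 were upregulated and 3 downregulated (median -0.18, and -0.056 without Q111-T replicate 3). Tgfb3 fell from 51.2 to 11.4 TPM, a log2 fold change of -2.07 ± 0.127, and the Wnt receptor gene Fzd2 from 45.3 to 11.9 TPM (-1.81 ± 0.137). Sfrp1, a secreted Wnt antagonist, rose from 0.236 to 2.93 TPM, a log2 fold change of 3.73 ± 0.244. Of 18 axon guidance and neurotrophin genes, 5 were upregulated and 4 downregulated. Gdnf, a survival factor of dopaminergic neurons, had 2.90, 3.87 and 2.89 TPM in the Q111-C libraries and 33.4, 26.8 and 31.3 TPM in the Q111-T libraries, a log2 fold change of 3.35 (standard error 0.142, edgeR adjusted p = 8.04e-07). Bdnf, a survival factor of striatal neurons, had 14.8, 16.3 and 15.5 TPM in the Q111-C libraries and 5.15, 4.04 and 4.38 TPM in the Q111-T libraries, a log2 fold change of -1.67 (standard error 0.110, edgeR adjusted p = 8.94e-06). The treated libraries were all above the controls for Gdnf and all below them for Bdnf. Of 11 epithelial and cornified-envelope genes tested, 4 were upregulated and 2 downregulated. They included Sprr2d, not detected in Q111-C and at least 3.56-fold higher, and Sprr1a, which fell from 13.1 to 2.57 TPM. The Sprr genes form a family of similar copies. A further 13 genes of that list, Cdh1 among them, were below the filter.

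The cells are labelled as a striatal neuronal line, and most defining markers of mature striatal neurons were at or near 0. Pdyn and Gad2 were listed at 0 in all 6 libraries and Bcl11b did not exceed 0.0407 TPM. Of 11 striatal markers in the table, 4 passed the filter. Penk, the precursor of enkephalins, had 4.01, 5.42 and 5.34 TPM in the Q111-C libraries and 1.47, 1.49 and 1.98 TPM in the Q111-T libraries, a log2 fold change of -1.47 (standard error 0.232, edgeR adjusted p = 0.00136), a call lost in the fit of all 12 libraries (edgeR adjusted p = 0.426). The call of Ppp1r1b (DARPP-32) at -1.15 ± 0.368 was lost in 10 of 17 alternatives. Of the neuronal markers, Tubb3 rose from 3.91 to 24.7 TPM, while Snap25 and Syt1 did not exceed 0.025 TPM. Among astrocyte markers Sox9 fell from 19.8 to 4.41 TPM and Slc1a3 from 9.86 to 2.75 TPM, Aldh1l1 rose from 0.0384 to 1.32 TPM, and Gfap and Aqp4 were below the filter. The macrophage and microglia genes summed to 32.3 to 37.3 TPM in Q111-C and 46.6 to 63.2 TPM in Q111-T, of which Cd68 and Tmem119 made up nearly all. Cd68, a lysosomal protein, rose from 15.2 to 48.8 TPM and Tmem119 fell from 18.7 to 5.13 TPM, while Ptprc, the pan-leukocyte marker, and Adgre1 were listed at 0 in all 6 libraries. Of 5 neural progenitor markers tested, 1 was upregulated and 0 were downregulated (median -0.06). Notch1 rose from 5.08 to 16.9 TPM, and Vim made up nearly all of the list's sum, which was 2414 to 2528 TPM in Q111-C and 1182 to 1242 TPM in Q111-T. Without Q111-T replicate 2, 2 members were downregulated. The 7 endothelial markers in the table were below the filter in every case. In bulk samples, fewer cells of a type and less RNA per cell cannot be told apart.

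The response was compared with that of STHdhQ7 cells in a fit of all 12 libraries that tests the difference between the lines itself. Of the 15055 genes, 586 responded more positively in STHdhQ111 cells (3.89%) and 199 more negatively (1.32%) past both thresholds. These genes were filtered on the Q111 libraries alone, so that genes present only in STHdhQ7 cells could not enter. The balance of the directions is therefore partly set by the filter. Among the 2086 DEGs of Q111-T vs. Q111-C, the numbers were 465 and 141, and for 1480 the difference was not called. The early-response list had 11 of 25 members with a higher response in STHdhQ111 cells against 3.89% of all genes. Over the GTPase list, median log2 changes were 6.28 in STHdhQ111 and 6.87 in STHdhQ7 cells. The 2 directions together came to 785 genes, to 520 without Q111-C replicate 2 and to 1241 with DESeq2. Both treated STHdhQ7 libraries high in muscle transcripts enter this fit, and the count was 941 without Q7-T replicate 1 and 1018 without Q7-T replicate 2. Without all 4 libraries high in muscle transcripts, chosen after seeing the data, it was 146, with a single Q7-T library that was assumed to vary like the other groups. In that fit 4 of the 20 named genes with a called difference, Grhl3, Zfp750, Aspn and Fbn2, kept their call. Of the 16 that lost it, 13 had a difference of the same sign and at least 2/3 of the reported size, such as 7.57 for Csf2, 7.28 for Wnt4 and 11.8 for Nts, and those of Hpgd, Kcnj2 and Emc9 were smaller. The part of these transcripts in the difference was not tested. These counts share the Q111 libraries with the response itself, and fitted differences of genes not detected in a group depend on the prior count and are no bounds. Grhl3 had 0.439 ± 0.160 TPM in nontreated and 0.501 ± 0.273 TPM in treated STHdhQ7 cells, and the difference of the responses was 12.5 (standard error 0.967, edgeR adjusted p = 0.000141). Zfp750, a transcription factor of epidermal differentiation, had 0.247, 0.106 and 0.205 TPM in the Q111-C libraries and 13.8, 13.01 and 12.8 TPM in the Q111-T libraries and 0.785 ± 0.329 TPM in nontreated and 0.570 ± 0.350 TPM in treated STHdhQ7 cells. The difference was 6.54 (standard error 0.590, edgeR adjusted p = 0.000124). Csf2 had 0.252 ± 0.271 TPM in nontreated and 0.506 ± 0.442 TPM in treated STHdhQ7 cells, a difference of 7.74 (standard error 1.44, edgeR adjusted p = 0.00831). Nts, the precursor of the neuropeptide neurotensin, rose in STHdhQ111 cells, with 0, 0.182 and 0.166 TPM in the Q111-C libraries and 13.5, 18.4 and 13.3 TPM in the Q111-T libraries, at least 59.03-fold higher. It had 0.0833 ± 0.0836 TPM in nontreated and 0.0329 ± 0.0570 TPM in treated STHdhQ7 cells, a difference of 8.45 (standard error 1.66, edgeR adjusted p = 0.0109). Wnt4 rose from 0.0873 to 2.26 TPM in STHdhQ111 cells and had 9.77 ± 1.99 TPM in nontreated and 2.23 ± 0.196 TPM in treated STHdhQ7 cells, where the log2 value of -1.96 did not pass the test (edgeR adjusted p = 0.0866). The difference was 6.77 (standard error 0.923, edgeR adjusted p = 0.00147). Grhl3, Zfp750, Csf2, Nts and Wnt4 passed the filter through Q111-T libraries alone and were named for the size of this difference. Their values and p-values therefore describe the choice.

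On the other side, Aspn and Hpgd fell in STHdhQ111 cells and had low levels in STHdhQ7 cells with and without treatment. Aspn had 1.25 ± 0.317 TPM in nontreated and 0.842 ± 0.414 TPM in treated STHdhQ7 cells, a difference of -5.54 (standard error 0.683, edgeR adjusted p = 0.000778). Hpgd had 0.146 ± 0.161 TPM in nontreated and 0.0857 ± 0.0761 TPM in treated STHdhQ7 cells, a difference of -6.82 (standard error 1.69, edgeR adjusted p = 0.0349) whose call was lost in 9 of 17 alternatives. Kcnj2, an inward-rectifier potassium channel gene, fell from 10.0 to 1.19 TPM in STHdhQ111 cells and had 0.0771 ± 0.0271 TPM in nontreated and 0.223 ± 0.206 TPM in treated STHdhQ7 cells, a difference of -4.89 (standard error 0.978, edgeR adjusted p = 0.0118). Emc9, at -1.003 ± 0.173, overlaps Psme1 on the opposite strand and its call of a response was lost in 9 of 17 alternatives. It had 0.0133 ± 0.0231 TPM in nontreated and 0.135 ± 0.109 TPM in treated STHdhQ7 cells, so that its difference of -4.42 rests partly on values near 0. Gm50147 was listed at 0 in every Q111-T library and had at most 1.16 TPM in Q111-C, so that it was at least 1.28-fold lower. It had 5.97 ± 1.22 TPM in nontreated and 3.02 ± 1.005 TPM in treated STHdhQ7 cells. Its fitted difference of -6.33 depends on the prior count. Among the genes with the largest gain in TPM, Cxcl10 had a difference of -0.49 (standard error 0.460, edgeR adjusted p = 0.603) and B2m of 0.27 (standard error 0.398, edgeR adjusted p = 0.753), neither of which passed the test.

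**Figure D4:**
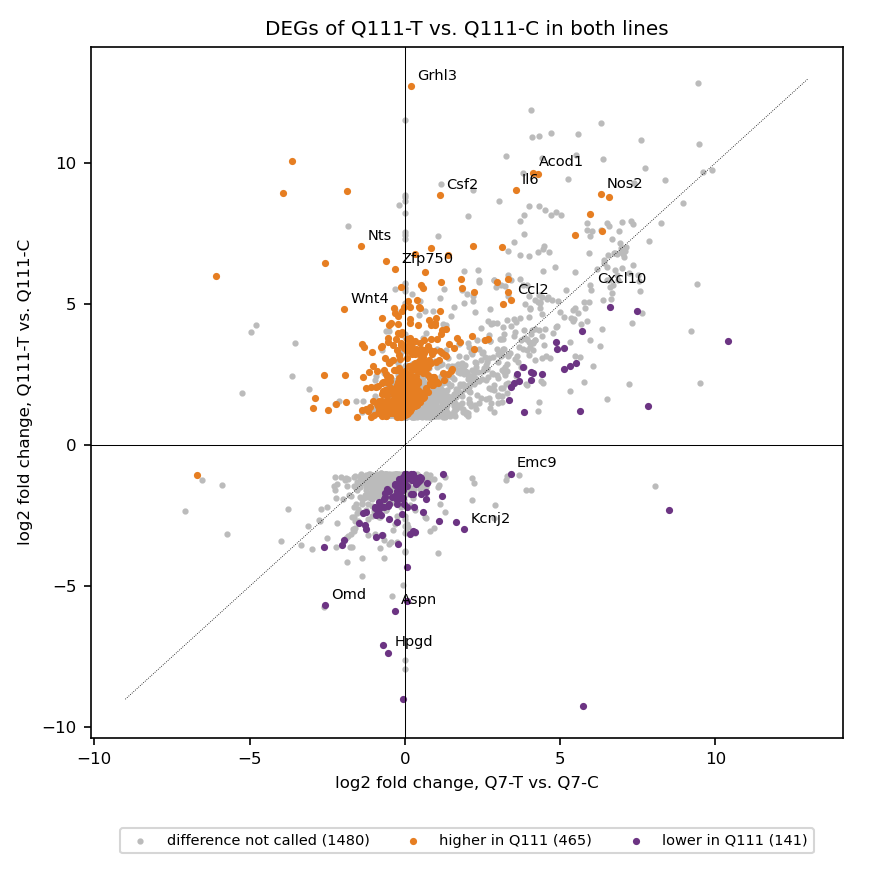
Log2 fold change of the 2086 DEGs in STHdhQ7 cells (x axis, Q7-T vs. Q7-C) and STHdhQ111 cells (y axis, Q111-T vs. Q111-C), with 465 genes whose response was higher in STHdhQ111 cells in orange, 141 with a lower response in purple and 1480 without a called difference in grey. The dotted line marks equal responses, and many genes called higher sit near 0 on the x axis, while fitted values of genes not detected in a group depend on the prior count.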

How the data were processed

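Poly(A) RNA of STHdhQ7 and STHdhQ111 cells was sequenced as stranded paired-end libraries. Per the labels and the study's methods, the authors trimmed reads with Cutadapt, aligned them with HISAT2 to GRCm38 (Ensembl annotation) and assembled and quantified transcripts with StringTie and Ballgown. The versions of these tools and the strand setting of counting are not given in the sources used here. The deposited table holds an estimated count and TPM, both computed by the authors, for each gene and library. In the 6 Q111 libraries, low counts fell on multiples of 4 at 1.16 to 1.37 times the rate of the neighbouring even numbers, so that 1 read pair appears to be worth about 4 counts. A gene was taken as not detected in a group at 12 or fewer estimated counts in every library, and a fold against such a group was given as a lower bound from that floor.

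Estimated counts were rounded and tested with the quasi-likelihood test of edgeR (version 4.0.16) in R (version 4.3.3) after TMM scaling, over the 6 Q111 libraries and the 15055 genes with at least 0.5 TPM in 3 of them. DEGs were genes that changed at least 2-fold with a p under 0.05 after Benjamini-Hochberg adjustment. The difference between the lines was the interaction term of a fit of 12 libraries. The test was checked on simulated data. The smallest p of an exact permutation test of 3 against 3 libraries is 0.1, so none was used. DESeq2 (version 1.42.0), limma (version 3.58.1) on log2(TPM + 0.5) and leaving out each library were among 17 alternatives.

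The genes named were first the 10 DEGs with the largest rise and the 10 with the largest fall. These had to reach 5 TPM, with groups that did not overlap in TPM. The 5 DEGs with the largest gain and the 5 with the largest loss in TPM were added. The rest were the 5 with the largest difference from STHdhQ7 cells in each direction and members of 28 gene lists. The members and lists were chosen with earlier results of these data known. Overlapping genes were taken from GENCODE M21, and promoter windows from RefSeq (GRCm38.p6). Some members of these lists are counted but not reported here by name.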

Additional observations from a re-analysis of the deposited data

Results flagged for a closer look

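Responses of 20 named genes differed between STHdhQ111 and STHdhQ7 cells in the test of the difference (edgeR, adjusted p under 0.05). The log2 response was higher in STHdhQ111 cells by 12.5 for Grhl3, 8.45 for Nts, 7.74 for Csf2, 6.77 for Wnt4 and 6.54 for Zfp750. Among the inflammatory genes it was higher by 5.52 for Acod1, 5.47 for Il6, 2.59 for Nos2 and 1.70 for Ccl2. For genes of matrix proteins the difference was -5.54 for Aspn, -4.41 for Fbn2, -3.08 for Omd, -1.53 for Ogn, -1.32 for Col6a2 and -1.15 for Col6a1, and it was -1.02 for the imprinted gene Peg10. Omd, Ogn, Col6a2, Col6a1 and Peg10 also fell in STHdhQ7 cells, with log2 values of -2.58, -2.02, -1.46, -1.24 and -2.60 (edgeR adjusted p under 0.05 each). Of the collagen and matrix list, 8 genes were downregulated in STHdhQ7 cells (median -0.67) and 10 in STHdhQ111 cells (median -0.88). The other genes with a lower log2 response in STHdhQ111 cells were Hpgd at -6.82, Gm50147 at -6.33, Kcnj2 at -4.89 and Emc9 at -4.42. Grhl3, Nts, Csf2, Wnt4, Zfp750, Hpgd, Gm50147, Aspn, Kcnj2 and Emc9 were named by the size of this difference, so that their values describe the choice. Among 17 alternatives, the call of the difference was lost in 11 for Emc9, 10 for Il6, 9 for Hpgd, 7 for Nos2 and 6 for Peg10. Without the 4 libraries high in muscle transcripts, a fit with 1 Q7-T library, 16 of the 20 calls were lost. Of these, 13 kept the sign and at least 2/3 of the reported size, among them Nts at 11.8, Csf2 at 7.57, Wnt4 at 7.28, Acod1 at 7.12 and Il6 at 5.15. The difference was -0.50 for Hpgd, -2.67 for Kcnj2 and -2.06 for Emc9. Grhl3, Aspn, Fbn2 and Zfp750 kept their call in all 17 alternatives. Fbn2 had 0.0362 ± 0.00896 TPM in nontreated and 0.0331 ± 0.0111 TPM in treated STHdhQ7 cells, a level too low to show a fall. Fitted differences of genes that were not detected in a group depend on the prior count.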

How the results depend on the processing

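Upregulated DEGs numbered between 972, with limma on log2(TPM + 1), and 1666, without a filter on low values, and downregulated DEGs between 465 and 768. Leaving out each library in turn gave 1439 to 1559 upregulated and 508 to 666 downregulated DEGs. The share of DEGs that were upregulated was 72.5% and fell to 63.4% to 67.1% with limma, where the median of all genes was shifted by -0.10 to -0.12. Each alternative shared at least 965 upregulated and 386 downregulated DEGs with the result reported. Of 324 DEGs that were named or belonged to a list, 272 kept their call in every alternative that tested them, 17 for most genes, and 0 changed direction.

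The number of genes whose response differed between the lines, 785, was 1241 with DESeq2, 780 with size factors and 806 with limma, of which 783, 771 and 464 were among the 785. It was 146, with 134 of the 785, without the 4 libraries high in muscle transcripts, a fit of 8 libraries. It ranged from 520 to 1018 when single libraries were left out, with the lowest value without Q111-C replicate 2. The cause was not tested. Replicate numbers did not pair the Q111 libraries, whose deviations correlated at -0.17, -0.0083 and -0.053. With the replicate number as a block, there were 1454 upregulated and 540 downregulated DEGs and 259 genes with a differing response. The list medians of mitochondrial dynamics, macrophage and neural progenitor genes, all near 0, changed sign in 1, 6 and 2 alternatives. Leaving out the libraries high in muscle transcripts was chosen after seeing the data. The depth limits the genes listed near 0, where folds are lower bounds.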
